A study of Mus musculus with 4 samples.

Results

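The genes described are 34 genes of cholesterol and fatty acid synthesis, chosen by symbol from a fixed list and found through the Ensembl identifiers of the deposited table. All 34 were among the 18276 genes of that table. They comprise 18 enzymes of sterol synthesis, 5 genes that control the sterol-sensing SREBP factors (Srebf1, Srebf2, Scap, Insig1 and Insig2), the sterol transfer gene Stard4, 5 genes of the LXR arm (Nr1h2, Nr1h3, Abca1, Abcg1 and Mylip) and 5 enzymes of fatty acid synthesis (Acly, Acaca, Fasn, Scd1 and Scd2). All 34 passed the filter on low values.

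The RNA was poly(A) RNA of osteoclast progenitors, the bone marrow precursors of the bone-resorbing osteoclast, obtained by sorting marrow for CD115 after excluding cells that carry B220, CD3 or Mac-1. All mice were of the mixed strain B6;129 and all carried Mx-1Cre, a recombinase gene under an interferon-inducible promoter that acts in blood-forming cells and in other tissues. The 2 Ptip_KO libraries came from mice with Ptip flox/flox alleles and Mx-1Cre, and the 2 WT libraries from mice with wild-type Ptip and Mx-1Cre. Ptip, whose gene symbol is Paxip1, encodes a protein of the MLL3 and MLL4 complexes, which methylate histone H3. Age and any treatment to induce Cre are not given in the labels. The labels also do not say whether the replicates were separate animals, so the p-values reflect only the spread of these libraries. For the Ptip_KO pair that spread may be technical. The 2 WT libraries differed in sex-linked transcripts, given below, so they were not repeats of the same RNA.

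The libraries held 67592972 to 77773478 reads, and 1 read was worth 0.0127 to 0.0143 CPM (read counts scaled to the effective library size). Paxip1 stood at 5.10 and 3.73 CPM in Ptip_KO, against 106 and 103 CPM in WT, with a log2 fold change of −4.29 (limma adjusted p = 0.000383). Csf1r, which encodes CD115, was at 606 to 825 CPM in all 4 libraries, while Cd3e and Cd3g, markers of the removed T cells, did not exceed 0.304 CPM. Cd79a, a gene of the B cells that B220 marks, was at 1.13 to 4.54 CPM, highest in WT replicate 2. Itgam, which encodes a subunit of Mac-1, was at 35.1 to 42.1 CPM although Mac-1 carriers were removed. Xist, which coats the inactive X chromosome, was at 298 CPM in WT replicate 2 and at no more than 0.0814 CPM in the other 3 libraries, and the Y-linked Ddx3y was at 0.101 CPM there against 69.1 to 89.6 CPM. WT replicate 2 thus differed from the other libraries in these sex-linked transcripts, and results are also given without it.

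Sterol synthesis runs from acetyl-CoA through mevalonate, isoprenoid units, squalene and lanosterol to cholesterol. When membranes of the endoplasmic reticulum hold little cholesterol, the escort protein SCAP carries SREBP precursors to the Golgi, where they are cut, and the released factors raise the genes of sterol and fatty acid synthesis. INSIG proteins hold SCAP back when sterols are plentiful. The LXR receptors work on the opposite side: bound by oxysterols, they raise cholesterol efflux through ABCA1 and ABCG1, raise the ubiquitin ligase MYLIP (also known as IDOL), which degrades lipoprotein receptors, and raise Srebf1. In macrophages this pairing of SREBP and LXR sets how much cholesterol is made, kept or exported.

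The sequences before the start sites show the kinds of element through which these pathways are known to act, and are printed for 6 examples: Abca1 and Mylip of the LXR arm, Hmgcs1 and Insig1 of the SREBP arm, and Srebf1 and Fasn, whose windows hold the same kind of repeat as that of Abca1. RefSeq promoter windows (250 bases before to 50 after a start, build GRCm38.p6) were matched by symbol for 27 of the 34 members, with 36 windows in all. Of each window below, the 250 bases before the start are given 5′ to 3′ on the gene's own strand. Capitals mark matches to one of 4 motifs. The sterol response element, bound by SREBP, was searched as TCACNCCAC. The E-box, which SREBP1 can also bind, was searched as CACGTG. The CCAAT box is marked on either strand, as ATTGG where it lies on the opposite one. A direct repeat of the kind LXR binds with its partner RXR, with 4 bases between its half-sites, was searched as NGGTNANNNNNGGTCA. Both strands were searched for every motif, and no member window had motifs of different kinds that overlap. The Srebf1 window shown is for a start inside the annotated gene.
Abca1 (chr4:53159896-53160145, minus strand): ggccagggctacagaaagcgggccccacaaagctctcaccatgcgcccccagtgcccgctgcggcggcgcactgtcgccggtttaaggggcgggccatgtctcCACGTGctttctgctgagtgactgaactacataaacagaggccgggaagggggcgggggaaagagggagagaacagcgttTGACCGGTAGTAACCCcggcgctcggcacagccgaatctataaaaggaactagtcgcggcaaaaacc
Srebf1 (chr11:60210472-60210721, minus strand): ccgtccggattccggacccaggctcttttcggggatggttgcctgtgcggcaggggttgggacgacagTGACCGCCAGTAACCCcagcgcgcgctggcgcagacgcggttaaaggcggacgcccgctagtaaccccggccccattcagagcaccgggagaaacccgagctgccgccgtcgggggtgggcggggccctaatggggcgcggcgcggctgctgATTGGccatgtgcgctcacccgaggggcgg
Fasn (chr11:120824548-120824797, minus strand): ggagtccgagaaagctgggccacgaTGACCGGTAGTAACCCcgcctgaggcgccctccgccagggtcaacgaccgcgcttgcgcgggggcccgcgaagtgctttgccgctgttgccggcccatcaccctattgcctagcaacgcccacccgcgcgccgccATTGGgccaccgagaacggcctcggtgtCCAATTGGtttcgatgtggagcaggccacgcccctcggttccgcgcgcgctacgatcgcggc
Mylip (chr13:45389492-45389741, plus strand): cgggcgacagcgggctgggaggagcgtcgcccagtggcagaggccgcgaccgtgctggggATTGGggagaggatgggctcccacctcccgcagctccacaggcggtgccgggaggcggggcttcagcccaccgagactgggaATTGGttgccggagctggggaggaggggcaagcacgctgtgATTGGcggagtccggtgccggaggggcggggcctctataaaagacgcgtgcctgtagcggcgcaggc
Hmgcs1 (chr13:119690101-119690350, plus strand): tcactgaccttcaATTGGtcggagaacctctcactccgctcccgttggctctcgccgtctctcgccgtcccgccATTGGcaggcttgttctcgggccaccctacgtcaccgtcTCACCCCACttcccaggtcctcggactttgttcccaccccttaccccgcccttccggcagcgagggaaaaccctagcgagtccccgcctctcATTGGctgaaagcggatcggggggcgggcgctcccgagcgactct
Insig1 (chr5:28071162-28071411, plus strand): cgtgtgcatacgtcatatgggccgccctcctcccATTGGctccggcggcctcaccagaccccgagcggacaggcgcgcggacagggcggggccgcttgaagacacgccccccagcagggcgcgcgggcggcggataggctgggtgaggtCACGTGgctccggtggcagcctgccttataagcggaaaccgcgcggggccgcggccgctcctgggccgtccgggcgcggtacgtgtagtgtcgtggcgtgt
The same direct repeat letters, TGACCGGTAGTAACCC on the printed strand, lie in the Abca1 and Fasn windows, and the Srebf1 window holds TGACCGCCAGTAACCC. These are 3 of the 36 member windows (8.33%), while 0.207% of all 32851 RefSeq windows of this length hold such a repeat. The spelling was kept loose enough to take in the element known for Abca1, so the match in that window is no finding. Any spelling that takes in those letters also takes in the Fasn window. The share of member windows is therefore no measure of enrichment. The strict form, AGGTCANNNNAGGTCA, was found in none of the 27 members and in 0.0148% of all genes with a window. The Mylip window held none of these repeats and had 3 CCAAT boxes. The sterol response element as spelled occurred in the Hmgcs1 window alone among the 27 members (3.7%), and in 1.44% of all genes with a window. The E-box occurred in 6 members (Insig1, Abca1, Hsd17b7, Dhcr7, Sc5d and Scap). These are 22.2% of the 27 members with a window, beside 8.09% of all genes with one. A CCAAT box, which the factor NF-Y binds beside SREBP, was found in 14 of 15 sterol enzymes with a window, and in 41.1% of all genes with one. The GC box GGGCGG, bound by the factor SP1 and not marked in capitals, was found in 14 of the 15 enzymes, and in 38.2% of all genes with a window. Each match is a description of these letters, and no binding was measured.

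The design sets the Ptip_KO libraries against WT to ask how loss of Ptip affects the transcripts of these progenitors. Among the 34 members, Mylip rose and the squalene epoxidase gene Sqle fell by limma on log2(CPM + 1), with an adjusted p (Benjamini-Hochberg over 12357 genes) under 0.05, and the other 32 did not pass. The background was 2.43% of all genes tested called higher and 3.86% called lower, so that 1 member in each direction is near the share of all genes. The median log2 fold change of the members was 0.04, against 0.0032 for all genes tested, and 28 of the 34 lay within 0.5 of zero. Of the members, 18 had a positive and 16 a negative log2 fold change. The most abundant per kilobase of exon were Acly, at a mean of 77.7 CPM per kb over the libraries, Scd2 at 41.0 and Ebp at 31.1. The lowest were Scd1, at 0.263, Fdps, at 0.545, and Nr1h3, at 0.631. Reads of Scd1 and Fdps can be shared with near-identical transcripts, given below, so their levels are uncertain.

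**Figure D1:**
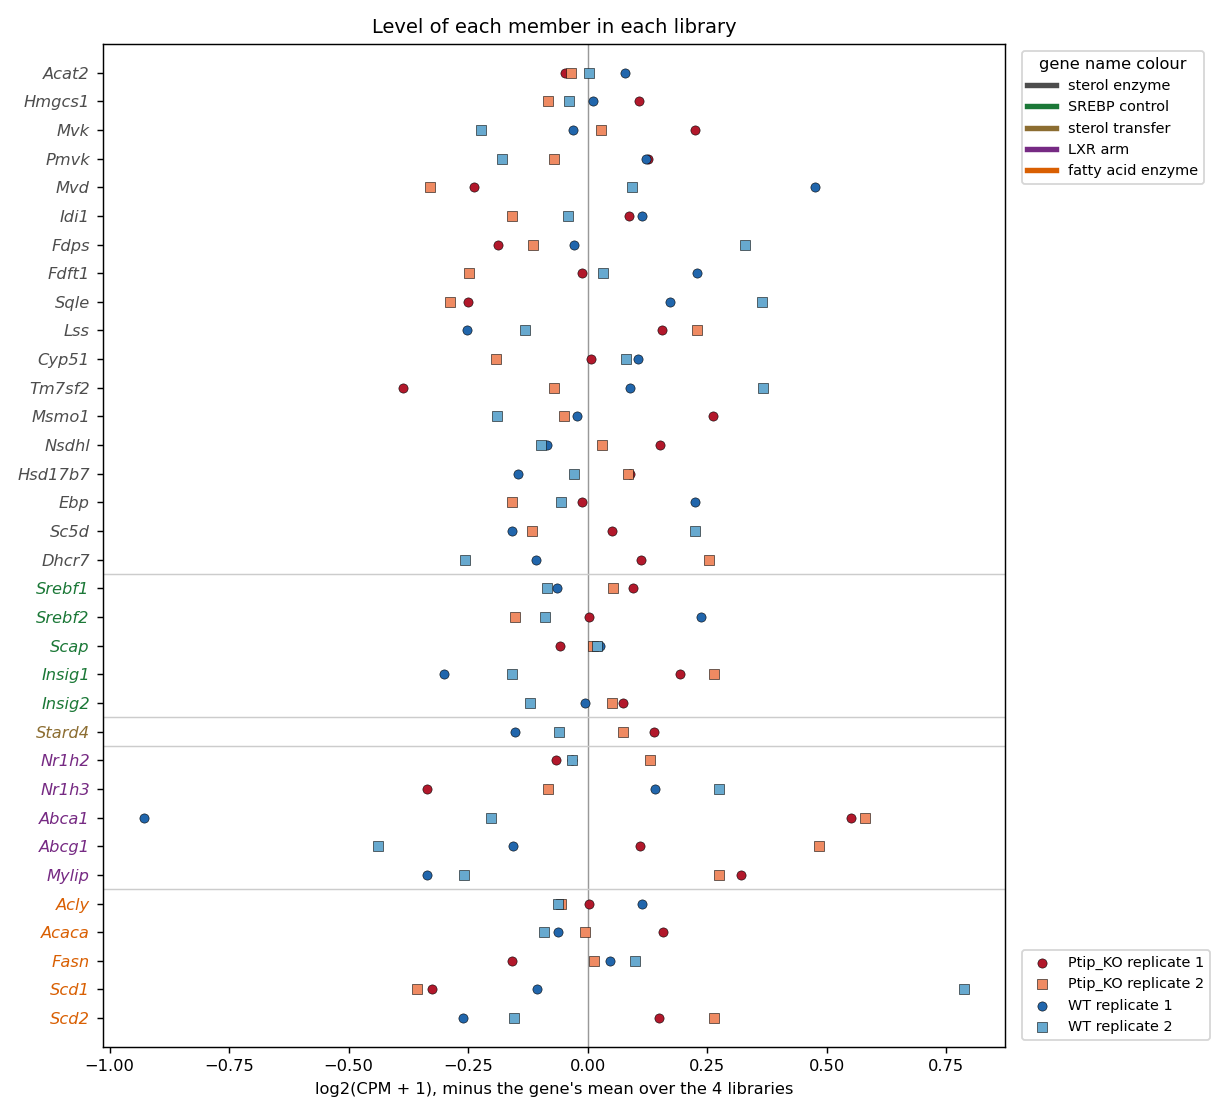
Each row is 1 of the 34 members, with 4 points for the libraries (red tones Ptip_KO, blue tones WT); the x axis is log2(CPM + 1) minus the gene's mean over the 4 libraries, and the colour of the gene name gives its role. Abca1, Mylip and Insig1 have both Ptip_KO libraries to the right of both WT libraries, Sqle and Mvd have them to the left, and Scd1 has WT replicate 2 far to the right.

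In the LXR arm, the 3 LXR target genes among the members were all higher in both Ptip_KO libraries than in both WT libraries. Of all genes tested, 27.7% were separated upward in this way. The 2 receptor genes were not separated upward. Of 12 tested LXR partners and other LXR targets, given below, none was called higher and 2 were called lower. Mylip (chromosome 13, 45389742 to 45412022) stood at 38.1 and 36.9 CPM in Ptip_KO, against 23.8 and 25.2 CPM in WT. Its groups were far apart against their spread, with a log2 fold change of 0.59 (SE 0.0931, 95% interval 0.36 to 0.82, limma adjusted p = 0.0263), and edgeR gave an adjusted p of 0.0296. Mylip passed in 13 of 15 alternative settings and was lost without Ptip_KO replicate 1 (limma adjusted p = 0.131) and without Ptip_KO replicate 2 (limma adjusted p = 0.101), fits that leave a lone Ptip_KO library assumed to vary like the WT pair. Without WT replicate 2, the library with Xist, the log2 fold change of Mylip was 0.63.

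Abca1, which encodes the transporter that loads cholesterol onto apolipoprotein A-I, had the largest change of the members on the log2(CPM + 1) scale, although by the ratio of mean CPM the low gene Scd1 differed more (0.377). Abca1 stood at 23.9 and 24.4 CPM in Ptip_KO, against 7.94 and 13.8 CPM in WT, so that the Ptip_KO libraries nearly coincided and the WT libraries lay apart. The ratio of the means was 2.23, and the log2 fold change of 1.13 (SE 0.238, 95% interval 0.54 to 1.72) missed the threshold by limma (adjusted p = 0.0540) and edgeR (adjusted p = 0.0862). DESeq2 gave an adjusted p of 0.000975. Leaving out WT replicate 1, the lowest library, lowered the log2 fold change to 0.77, and leaving out WT replicate 2 raised it to 1.49. Either fit leaves a lone WT library assumed to vary like the Ptip_KO pair, so the WT spread drops out.

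Abcg1, the gene of a transporter that passes cholesterol to HDL, stood at 80.6 and 104.7 CPM in Ptip_KO, against 66.8 and 54.8 CPM in WT. The groups did not overlap, but the Ptip_KO libraries differed from each other by more than the gap between the groups, and the log2 fold change of 0.59 (95% interval 0.20 to 0.99) did not pass (limma adjusted p = 0.0932). The log2 fold change of Abcg1 was 0.735 without WT replicate 1 and 0.453 without WT replicate 2. It was 0.781 without Ptip_KO replicate 1 and 0.41 without Ptip_KO replicate 2. The receptor gene Nr1h2, which encodes LXR beta, stood at 90.1 and 103.5 CPM in Ptip_KO, against 92.4 and 92.4 CPM in WT, with overlapping groups. Nr1h3, which encodes LXR alpha, was close to the filter on low values (1 CPM), at 1.02 and 1.41 CPM in Ptip_KO, against 1.82 and 2.09 CPM in WT (limma adjusted p = 0.236). Per kilobase of exon, Nr1h2 was 33.1 to 66.0 times the level of Nr1h3 in the 4 libraries.

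Among the 18 sterol enzymes, from the first step at Acat2 to the last at Dhcr7, none rose and 1 fell (5.56%). Of all genes tested, 2.43% were called higher and 3.86% lower, so this count is near the share of all genes. The median log2 fold change of the 18 was −0.07 (0.03 without Ptip_KO replicate 2). At the entry to the pathway, Hmgcs1, the synthase that makes HMG-CoA, was at 64.1 and 56.0 CPM in Ptip_KO, against 59.9 and 57.8 CPM in WT, with the WT values inside the Ptip_KO range. Acat2, the thiolase of the first step, was at 16.8 and 17.0 CPM in Ptip_KO, against 18.4 and 17.4 CPM in WT, a difference that did not pass (limma adjusted p = 0.682). Idi1, the isomerase that interconverts the isoprenoid units, overlapped between groups, at 26.8 and 22.5 CPM in Ptip_KO, against 27.4 and 24.5 CPM in WT. The intervals of these 3 genes bound how far they may differ: between −0.22 and 0.28 for Hmgcs1, between −0.33 and 0.17 for Acat2 and between −0.38 and 0.24 for Idi1, all as log2 fold changes.

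Sqle (chromosome 15, 59315077 to 59331192), which encodes the oxygenase that opens the sterol branch from squalene and is a rate-limiting enzyme of the pathway, stood at 21.2 and 20.6 CPM in Ptip_KO, against 28.7 and 32.9 CPM in WT. Both Ptip_KO libraries were below both WT libraries, and the log2 fold change was −0.54 (SE 0.109, 95% interval −0.81 to −0.27, limma adjusted p = 0.0487). The call was at the edge of the threshold and held in 7 of 15 alternative settings. It was lost by edgeR (adjusted p = 0.0598) and when Ptip_KO replicate 1 (limma adjusted p = 0.163), Ptip_KO replicate 2 (limma adjusted p = 0.197) or WT replicate 2 (limma adjusted p = 0.0541) was left out. Mvd, the decarboxylase that ends the mevalonate part, was lower in both Ptip_KO libraries, at 19.0 and 17.7 CPM against 31.8 and 24.1 CPM, without passing (log2 fold change −0.57, limma adjusted p = 0.0892). The log2 fold change of Mvd was −0.38 without WT replicate 1 and −0.76 without WT replicate 2.

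Lss, the cyclase that forms lanosterol directly after the Sqle step, had the other direction, at 11.2 and 11.8 CPM in Ptip_KO, against 8.19 and 9.003 CPM in WT (log2 fold change 0.38, limma adjusted p = 0.128). Dhcr7, the reductase of the last step to cholesterol, was at 18.02 and 19.996 CPM in Ptip_KO, against 15.3 and 13.7 CPM in WT (log2 fold change 0.37, limma adjusted p = 0.136). So of the 4 sterol enzymes with the smallest p, Sqle and Mvd had negative and Lss and Dhcr7 positive log2 fold changes. The X-linked enzymes did not separate WT replicate 2 from the rest: Ebp was at 71.0 and 64.0 CPM in Ptip_KO, against 83.7 and 68.8 CPM in WT. Nsdhl was at 17.7 and 16.2 CPM in Ptip_KO, against 14.8 and 14.7 CPM in WT.

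The other sterol enzymes, Mvk, Pmvk, Fdps, Fdft1, Cyp51, Tm7sf2, Msmo1, Hsd17b7 and Sc5d, had log2 fold changes between −0.46 (Tm7sf2) and 0.25 (Mvk), and none passed. Of all 18, 5 had both Ptip_KO libraries above both WT libraries and 7 had them below, where 27.7% of all genes tested were separated upward and 27.3% downward. Several of these values are uncertain because reads can be shared. Fdps, the farnesyl diphosphate synthase, was listed at 1.87 to 3.09 CPM and has 5 near-identical copies by transcript sequence, among them Gm43738, which overlaps it on the same strand. Fdft1 overlaps the exons of Ctsb, a cathepsin gene at 591 to 832 CPM on the opposite strand, and Tm7sf2 shares an identical stretch with Vps51 on its own strand. Cyp51 overlaps Akap9 on the opposite strand, and Acat2 and Idi1 also have near-identical copies. Whether the counting used strand is not given in the sources used here.

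The genes that control SREBP held to a narrow range apart from Insig1. Srebf1, whose products favour fatty acid synthesis and which LXR is known to raise, was at 150.3 and 146.0 CPM in Ptip_KO, against 134.5 and 132.4 CPM in WT. Its groups did not overlap, the log2 fold change was 0.15 (95% interval −0.05 to 0.35), and it did not pass (limma adjusted p = 0.334). Srebf1 overlaps Rai1 on the opposite strand. Srebf2, the factor that favours sterol synthesis, overlapped between groups, at 87.3 and 78.2 CPM in Ptip_KO, against 102.8 and 81.8 CPM in WT. Scap was at 96.6 and 101.4 CPM in Ptip_KO, against 102.4 and 101.9 CPM in WT.

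Insig1 (chromosome 5, 28071363 to 28078662), itself a known SREBP target as well as a brake on SREBP, stood at 77.6 and 81.7 CPM in Ptip_KO, against 54.9 and 60.7 CPM in WT. Both Ptip_KO libraries were above both WT libraries, and the log2 fold change of 0.46 (SE 0.0936, 95% interval 0.22 to 0.69) lay just outside the threshold by limma (adjusted p = 0.0505) and outside it by edgeR (adjusted p = 0.0649). DESeq2 gave an adjusted p of 0.00260. Without WT replicate 2, the log2 fold change of Insig1 was 0.53. Insig2 was low, at 7.54 and 7.41 CPM in Ptip_KO, against 7.08 and 6.47 CPM in WT (limma adjusted p = 0.597). Per kilobase, Insig1 was 8.71 to 12.4 times the level of Insig2. Stard4, which encodes a soluble sterol carrier known as an SREBP target, was at 23.0 and 21.95 CPM in Ptip_KO, against 18.6 and 19.9 CPM in WT (limma adjusted p = 0.273).

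**Figure D2:**
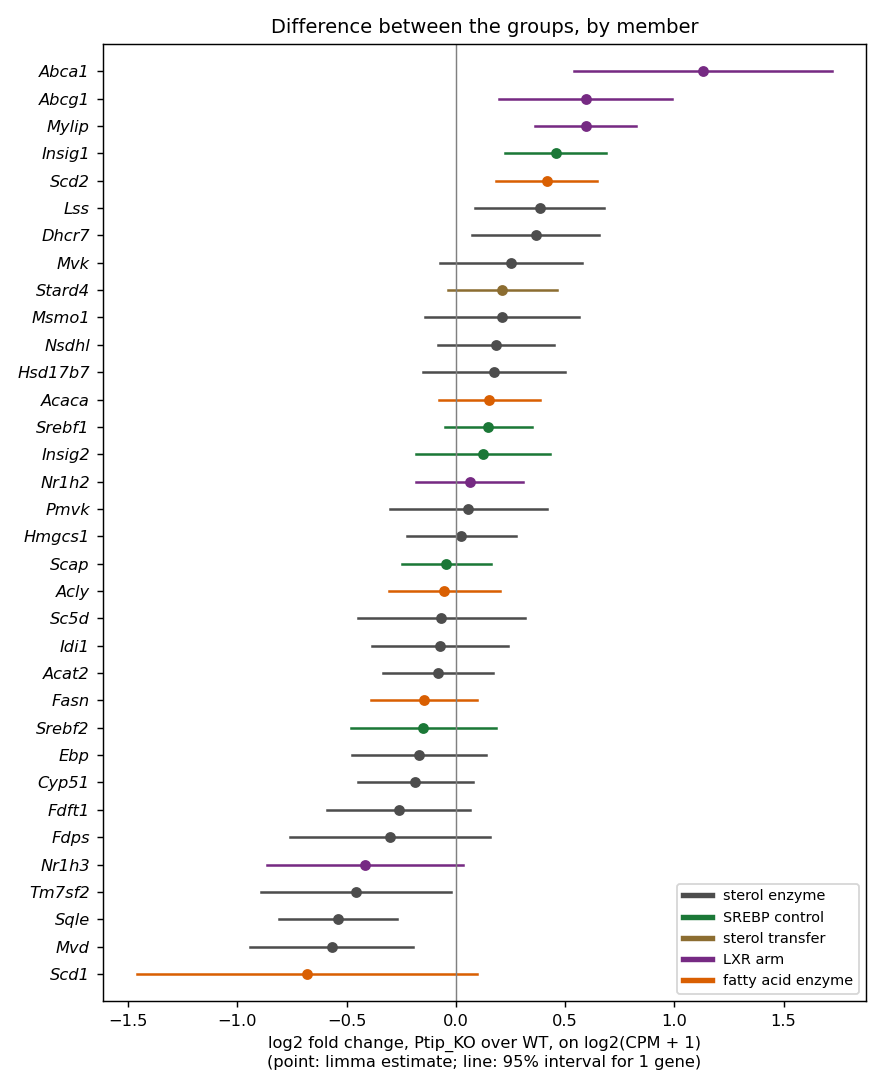
Points are limma log2 fold changes of Ptip_KO over WT on log2(CPM + 1), lines are 95% intervals for 1 gene at a time, and colours give the role. Abca1, Abcg1 and Mylip of the LXR arm lie at the top, at 1.13, 0.59 and 0.59, the sterol enzymes spread on both sides of zero, and Scd1, at −0.68, has the widest interval.

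In fatty acid synthesis, none of the 5 enzymes passed by limma, and their median log2 fold change was −0.05 (0.04 without WT replicate 1, and 0.05 where a filter at 5 CPM removes Scd1). Acly, which makes cytosolic acetyl-CoA from citrate, was the most abundant member, at 410.7 and 394.1 CPM in Ptip_KO, against 443.3 and 392.5 CPM in WT. Acaca, the acetyl-CoA carboxylase, was at 112.1 and 100.02 CPM in Ptip_KO, against 96.0 and 94.2 CPM in WT, and it shares sequence with the copy Gm5182 (2.07 to 2.53 CPM). Fasn, the fatty acid synthase, was at 236.4 and 266.3 CPM in Ptip_KO, against 272.5 and 282.8 CPM in WT. The intervals of the log2 fold changes were −0.31 to 0.20 for Acly, −0.08 to 0.39 for Acaca and −0.39 to 0.10 for Fasn.

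The stearoyl-CoA desaturases, which put the double bond into oleate, differed from each other in level and direction. Scd2 stood at 246.1 and 266.7 CPM in Ptip_KO, against 184.9 and 199.1 CPM in WT, with both Ptip_KO libraries higher, and did not pass (log2 fold change 0.42, SE 0.0939, limma adjusted p = 0.0624). DESeq2 gave Scd2 an adjusted p of 0.00261. Scd1 was barely present, at 0.722 and 0.685 CPM in Ptip_KO, against 1.00 and 2.73 CPM in WT. Its log2 fold change of −0.68 (limma adjusted p = 0.260) thus rests on WT replicate 2. It was −0.23 without that library and −1.13 without WT replicate 1. Per kilobase, Scd2 was 65.4 to 349 times the level of Scd1, and the transcripts are 95.5% identical over 623 nucleotides, so reads can be shared.

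By count models on the recovered reads, the calls among the members differed. The edgeR quasi-likelihood test called Mylip alone, against 5.34% of all genes in either direction. DESeq2 called 7 members, of which Abca1, Mylip, Abcg1, Insig1 and Scd2 were higher and Sqle and Mvd lower, against 15.4% of all genes in either direction. Without WT replicate 2, limma log2 fold changes were 1.49 (Abca1), 0.63 (Mylip), 0.45 (Abcg1), 0.53 (Insig1), 0.47 (Scd2), −0.44 (Sqle) and −0.76 (Mvd). Without WT replicate 1, they were 0.77 (Abca1), 0.56 (Mylip), 0.73 (Abcg1), 0.39 (Insig1), 0.36 (Scd2), −0.63 (Sqle) and −0.38 (Mvd). Without either Ptip_KO library, limma called no member. Of the 34, 14 had both Ptip_KO libraries above both WT libraries and 11 below, or 41.2% and 32.4%, beside 27.7% and 27.3% of all genes. Each fit without 1 library took its residual variance from the pair of the other group alone. A call gained there leaves out the spread of the omitted library's group. With 2 libraries against 2, an exact permutation test of a single value cannot give a 2-sided p below 0.333.

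**Figure D3:**
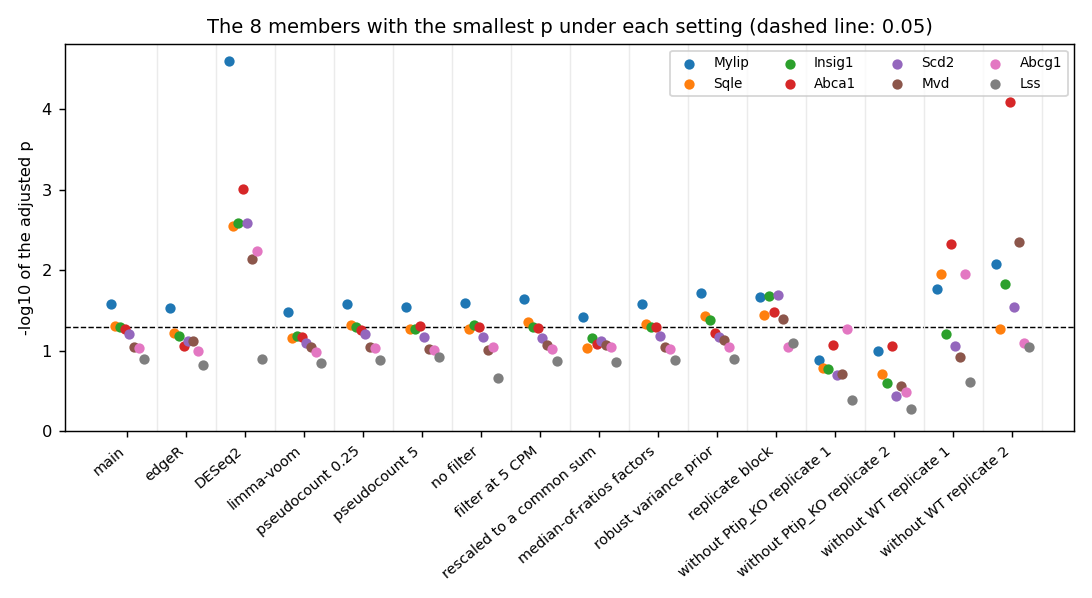
The y axis is −log10 of the adjusted p of the 8 members with the smallest p, and the x axis gives the main fit and the 15 alternatives, with the dashed line at an adjusted p of 0.05. Mylip is above the line in every setting except those without a Ptip_KO library, Sqle, Insig1 and Abca1 lie along the line under most limma settings, and DESeq2 puts 7 of the 8 above it.

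Set against each other, the SREBP arm (the 18 sterol enzymes, Stard4 and Insig1) differed little between the groups. The mean of the 5 genes of the LXR arm was higher in Ptip_KO. The mean log2(CPM + 1) of the SREBP arm was 4.37 and 4.29 in Ptip_KO and 4.36 and 4.34 in WT, so the WT values lay between the Ptip_KO values. The mean of the LXR arm was 4.76 and 4.92 in Ptip_KO and 4.38 and 4.51 in WT, without overlap. The difference, SREBP arm minus LXR arm, was −0.39 and −0.63 in Ptip_KO and −0.03 and −0.17 in WT. Its Ptip_KO mean minus its WT mean was −0.41. With Abca1, Abcg1 and Mylip alone in the LXR arm, it was −1.06 and −1.25 in Ptip_KO and −0.27 and −0.46 in WT. The median log2 fold change was −0.02 over the 20 SREBP genes and 0.59 over the 5 LXR genes, a distance of −0.61 that came to −0.32 without Ptip_KO replicate 2 and to between −0.64 and −0.50 without each other library. These arm values are a description without a test, and the LXR value rests on 3 genes, of which Mylip passed by limma. The median over the 5 LXR genes was the value of Mylip. Within the arm, Nr1h3 was lower in both Ptip_KO libraries (log2 fold change −0.42). Other LXR partners and targets, given below, did not share the rise. Of 12 tested, 5 had a positive log2 fold change, none was called higher and 2 were called lower (median −0.10).

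**Figure D4:**
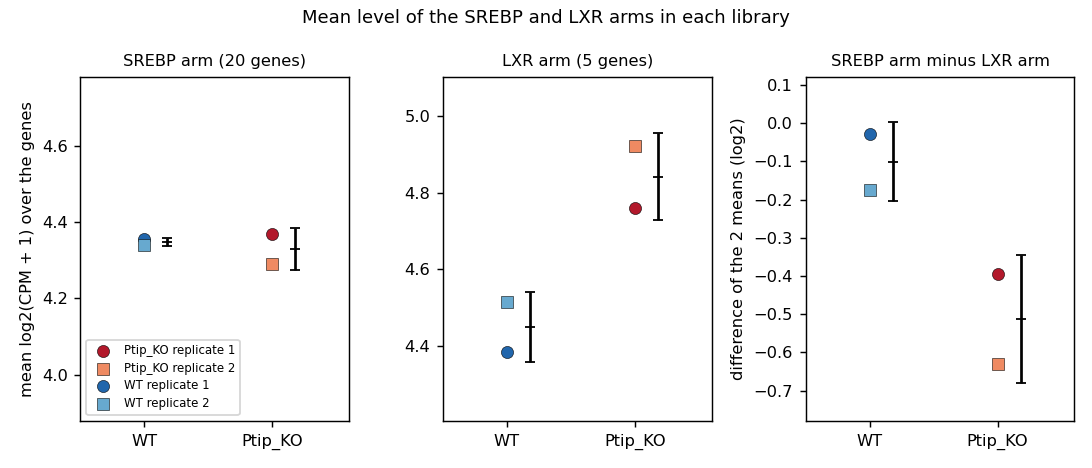
Each point is 1 library, the y axes of the first 2 panels are the mean log2(CPM + 1) over the arm's genes and that of the third is their difference, and all 3 panels span the same range of log2 units. Bars beside the points give the mean ± SD over 2 libraries; the SREBP arm lies at 4.29 to 4.37 in all 4 libraries, and the LXR arm at 4.76 and 4.92 in Ptip_KO above 4.38 and 4.51 in WT.

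Other genes of the same pathways were counted from lists of related genes, beside 2.43% of all genes called higher and 3.86% called lower. Of 12 tested LXR partners and other LXR targets, none rose and 2 fell (16.7%), with a median log2 fold change of −0.10, and 5 had a positive log2 fold change. Arl4c, a small GTPase gene known as an LXR target, was at 22.2 and 22.1 CPM in Ptip_KO, against 75.2 and 46.6 CPM in WT (log2 fold change −1.38, limma adjusted p = 0.0267). Abcg4, a sterol transporter gene related to Abcg1, was at 0.696 and 1.43 CPM in Ptip_KO, against 3.41 and 5.14 CPM in WT (log2 fold change −1.36, limma adjusted p = 0.0424, lost by edgeR at an adjusted p of 0.0749 and without Ptip_KO replicate 1 at a limma adjusted p of 0.100). The receptor partners Rxra and Rxrb had log2 fold changes of 0.02 and 0.04. Arl4c kept a limma adjusted p under the threshold when each library was left out, up to 0.0283.

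In sterol storage and transport, 2 of 18 tested genes rose (11.1%) and 1 fell (5.56%), and the median was 0.05. Cyp27a1, which encodes the sterol 27-hydroxylase that makes an oxysterol ligand of LXR, was at 71.4 and 77.5 CPM in Ptip_KO, against 33.5 and 36.0 CPM in WT. Its log2 fold change of 1.08 (SE 0.0947, limma adjusted p = 0.00658) passed when each library was left out, with limma adjusted p up to 0.0117. Lipa, the lysosomal acid lipase gene that frees cholesterol from its esters, was at 181.7 and 162.4 CPM in Ptip_KO, against 116.4 and 110.8 CPM in WT (log2 fold change 0.59, limma adjusted p = 0.0274). Stard5, which encodes a lipid carrier of the same START family as Stard4, was at 11.1 and 9.76 CPM in Ptip_KO, against 17.2 and 17.8 CPM in WT (log2 fold change −0.70, limma adjusted p = 0.0305). Both Lipa and Stard5 lost the call without either Ptip_KO library, with limma adjusted p up to 0.140 and 0.139.

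No gene passed among 13 others of sterol synthesis and SREBP processing (median −0.02), 11 of isoprenoid synthesis and protein prenylation (median −0.07) and 17 of fatty acid oxidation (median 0.05). Among 22 others of fatty acid synthesis and desaturation, 1 rose (4.55%) and 2 fell (9.09%). Acacb, the carboxylase isoform that limits entry of fatty acids into mitochondria, was at 4.10 and 4.47 CPM in Ptip_KO, against 1.21 and 1.496 CPM in WT (log2 fold change 1.17, limma adjusted p = 0.0191), and lost the call without Ptip_KO replicate 1 (limma adjusted p = 0.0588) or replicate 2 (limma adjusted p = 0.0807). Elovl7, an elongase gene, was at 1.34 and 0.928 CPM in Ptip_KO, against 6.51 and 6.62 CPM in WT (log2 fold change −1.83, limma adjusted p = 0.00658). Acsl1, which activates long-chain fatty acids to acyl-CoA, was at 90.6 and 89.1 CPM in Ptip_KO, against 148.1 and 152.9 CPM in WT (log2 fold change −0.74, limma adjusted p = 0.0114).

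Markers of other cell types differed between the groups beside these genes. Of 12 tested tissue macrophage markers, 8 fell, with a median log2 fold change of −1.36 and a summed level of 53.6 and 55.9 CPM in Ptip_KO, against 191.0 and 161.8 CPM in WT, and the defining marker Adgre1 was at 8.67 and 6.79 against 90.5 and 51.7 CPM. Of 9 dendritic cell markers, 5 fell (summed level 161 and 165 against 391 and 298 CPM), and of 11 red cell markers, 7 fell (808 and 1105 against 2085 and 4809 CPM). Of 10 neutrophil markers, 1 fell, with a median log2 fold change of −1.22 and 8 negative values. Their summed level overlapped, at 10495 and 11413 CPM in Ptip_KO, against 9321 and 13890 CPM in WT. Of 10 proliferation genes, 2 fell, and 3.86% of all genes tested were called lower. All 10 had a negative log2 fold change (median −0.24). Both Ptip_KO libraries were below both WT libraries for 9 of these 10, beside 27.3% of all genes tested. None of the markers in these 5 lists was called higher, and 2 of the 10 neutrophil markers had a positive log2 fold change. The part of these cells in the values of the lipid genes was not tested, and in bulk RNA fewer cells of a type and less RNA per cell cannot be told apart.

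**Figure D5:**
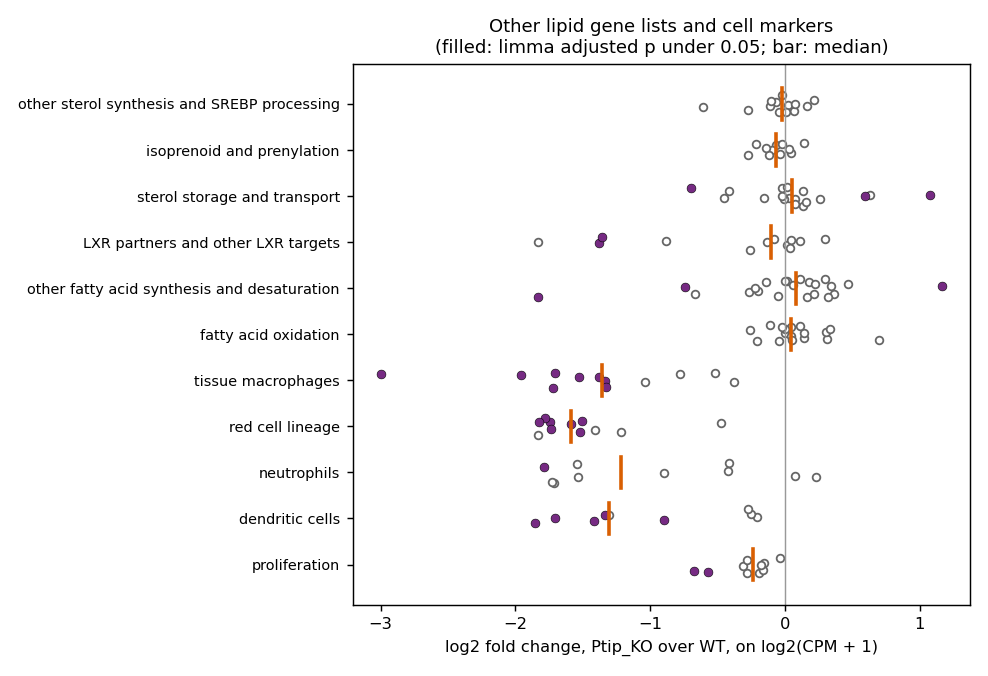
Each circle is 1 tested gene of a list named on the y axis, the x axis is the log2 fold change of Ptip_KO over WT, filled circles have a limma adjusted p under 0.05, and orange bars are medians. The 6 lipid lists have medians from −0.10 to 0.09, and the medians of the macrophage, red cell, neutrophil and dendritic lists lie from −1.59 to −1.22. The proliferation list has a median of −0.24.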

How the data were processed

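Per the labels' protocols, the 4 libraries were prepared from poly(A) RNA with a stranded Illumina kit. The submitters' processing notes list TopHat2 2.0.10, HTSeq 0.6.0, edgeR 3.8.6 and the build mm10, with no role or parameter for any of them. The deposited table holds a signal per gene: CPM computed by the authors with edgeR, per the file name and header, from library sizes scaled by normalization factors, so that library sums differ. In each library all 18276 values (100%) came out as whole reads, to a tolerance of 0.01 read, and these recovered reads served the count models.

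The filter kept 12357 genes that reached 1 CPM in 2 or more libraries. They were fitted in limma 3.58.1 (R 4.3.3) as log2(CPM + 1), using a trended prior on the variance and a single genotype term. Tests were 2-sided, p-values were adjusted by Benjamini-Hochberg, and 777 genes fell under the threshold of 0.05. Fold changes on this scale understate those of low genes. The method was tested on simulated data. The alternatives were count models on recovered reads (edgeR 4.0.16, DESeq2 1.42.0, limma-voom), other pseudocounts (0.25, 5), other filters (none, 5 CPM), other scalings (common sum, median-of-ratios), a robust prior, a replicate block, and omission of each library in turn. A copy of a gene was called near-identical when BLAST 2.17.0 aligned the transcripts with an identity of 95% or higher across 50% or more of the shorter transcript and 200 or more nucleotides. Gene positions come from GENCODE M21 (GRCm38, to which mm10 corresponds), and 92.19% of the table's identifiers matched its versions. Promoter sequences come from RefSeq.

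The members and lists were chosen with earlier results of these data known, so no list is independent evidence and none was tested as a set. Values are given for the members past the threshold, the 8 with the smallest p, the regulators, the LXR genes, the fatty acid enzymes, Stard4, 6 sterol enzymes and, of each other list, up to 4 genes past the threshold by smallest p. Genes at the ends of ranges, Rxra, Rxrb, Adgre1, Cd79a and overlapping genes were named after their values were seen. One marker of the removed cells is not reported here.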

Additional observations from a re-analysis of the deposited data

How the results depend on the processing

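Over the 34 members and 15 alternatives, 467 of the log2 fold changes kept their direction and side of the threshold, 19 newly passed, 10 no longer passed and 11 changed sign. The count of all genes called was 777, and it was 1906 by DESeq2, 660 by edgeR, and between 452 (without Ptip_KO replicate 1) and 1620 (without WT replicate 2) when 1 library was left out. Members called higher were 1 in the fit reported, 5 by DESeq2, 2 with a pseudocount of 5, with no filter or with a robust prior, and 0 to 4 without 1 library. Members called lower were 1 in the fit reported, 2 by DESeq2, 0 by edgeR, by limma-voom, with a pseudocount of 5, with no filter or scaled to a common sum, and 0 to 2 without 1 library. The median log2 fold change of the sterol enzymes was −0.021 scaled to a common sum and −0.113 to 0.034 without 1 library. That of the fatty acid enzymes was 0.051 with the filter at 5 CPM, which removes Scd1 (and Fdps and Nr1h3), and −0.119 to 0.036 without 1 library. That of the LXR arm was 0.41 to 0.57 without 1 library. The median of the SREBP arm minus that of the LXR arm was −0.64 to −0.32. Log2 fold changes that changed sign without 1 library were −0.070 to 0.12 for Hmgcs1, −0.095 to 0.21 for Pmvk, −0.20 to 0.049 for Idi1, −0.26 to 0.13 for Sc5d, −0.31 to 0.014 for Srebf2, −0.035 to 0.16 for Nr1h2 and −0.14 to 0.036 for Acly, and Scap was at 0.0058 scaled to a common sum. The causes of these changes were not tested. With the replicate number as a block, 1721 genes were called, and 4 members were called higher (Abca1, Mylip, Insig1 and Scd2) and 2 lower (Sqle and Mvd). The block used the numbers of the sample titles, while the deposited column of WT replicate 2 is named WT_3, a number that no Ptip_KO column has. The title numbers are shared by 2 pairs only, whose deviations from the group means correlated at 0.332, and no label says that a number marks a shared animal, litter or day, so they were not taken as pairs. The standard errors were largest for Scd1 (0.313), the lowest member, and for Abca1 (0.238), whose WT libraries lay apart.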
